A study of Mus musculus with 21 samples.

Results

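Met, Egfr, Nras, Braf and Map2k1 are 5 oncogenes of the pathway that runs from receptor tyrosine kinases through RAS to the MAP kinases. Their DNA copy number was examined in 21 liver tumours of mice with non-alcoholic steatohepatitis (NASH) by array comparative genomic hybridization, in which tumour DNA and reference DNA compete for the same probes. The locus of a gene was taken as all probes within 500 kb of any probe that carries its name, so that the 5 loci hold 293 probes over both array designs. They are 5 of 22973 gene loci that were measured and tested in the same way.

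All mice were C57BL/6, male in the paper's methods, and had received CD-HFD, a diet rich in fat and lacking choline that causes NASH, for 12 months. The anti-PD1 group comprised 12 tumours from mice that were also given an antibody against the T cell checkpoint receptor PD-1 for 8 weeks, which the labels place after the diet, and the CD-HFD group comprised 9 tumours from mice without the antibody. Tumours whose sample names begin with the same number were treated as lesions of 1 animal, so that either group held 7 mice, and 5 mice contributed more than 1 lesion. DNA came from fixed, paraffin-embedded sections of tumours from those animals that had developed them, and the reference was a pool that the labels call liver tails. The share of tumour cells in each section is not given in the sources used here, so a change in few cells and a smaller change in all cells cannot be told apart. Each tumour was hybridized once. Slides 1 and 2 both carried 4 anti-PD1 and 4 CD-HFD tumours, and slide 3 carried 4 and 1. Slide 1 carried another array design than slides 2 and 3.

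Receptor tyrosine kinases such as Met, the receptor of hepatocyte growth factor, and Egfr, the receptor of epidermal growth factor, bind growth factors outside the hepatocyte and recruit exchange factors that load RAS proteins with GTP. Nras is one of these RAS proteins. Loaded RAS activates kinases of the RAF family such as Braf, which phosphorylate the MEK kinases, among them MEK1, the product of Map2k1, and these in turn activate the ERK kinases that drive growth and division. Extra copies of receptor genes and activating mutations of RAS and RAF genes are known routes by which this pathway is switched on in tumours, and an array of this kind reads only copy number, not mutation.

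The values are log2 ratios of tumour over reference from which the array median was subtracted. A value of 0 is therefore the median of that tumour, not a known copy number. If every cell of a section were otherwise diploid and carried 1 extra copy of an autosome, the log2 ratio against a diploid reference would be 0.585. Met was covered by 46 probes on slide 1 and 28 on slides 2 and 3, Egfr by 38 and 21, Nras by 26 and 36, Braf by 33 and 42, and Map2k1 by 34 and 44. The standard error of a locus mean over its probes lay between 0.059 and 0.16 in single tumours. It is a rough guide to what 1 array can resolve, since neighbouring probes do not vary independently.

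The oligonucleotides that read these genes are shown to make plain what was measured. For each gene it is the probe named for it that lies on both designs nearest to the middle of its named probes. Each sequence is written 5′ to 3′ on the plus strand, with bases of an annotated exon in capitals and intron bases in lower case. Exons were read from GENCODE vM21 after exact matching of the probe to GRCm38, while the coordinates are those of the files in mm9.
Met: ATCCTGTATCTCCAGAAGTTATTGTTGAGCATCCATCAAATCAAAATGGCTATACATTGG
Egfr: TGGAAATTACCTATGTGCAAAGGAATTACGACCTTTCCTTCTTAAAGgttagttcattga
Braf: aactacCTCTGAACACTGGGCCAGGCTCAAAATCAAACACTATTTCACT
Map2k1: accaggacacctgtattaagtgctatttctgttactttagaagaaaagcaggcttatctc

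The Met probe at chr6:17476371-17476430 lies within coding sequence, and it had a mean log2 ratio of -0.48 ± 0.24 (SD, n = 21 tumours). The Egfr probe at chr11:16759004-16759063 crosses from a coding exon into the intron behind it and had a mean of -0.036 ± 0.32. The Braf probe at chr6:39596718-39596766 covers 43 coding bases and the adjoining intron, and its mean was -0.33 ± 0.19. The Map2k1 probe at chr9:64048143-64048202 is intronic, with a mean of 0.081 ± 0.19. The single probe named for Nras, at chr3:102869795-102869854, lies in an untranslated region and had a mean of -0.47 ± 0.19. For Met, Braf and Nras, and slightly for Egfr, the probe thus lay below the array median in the mean although the locus as a whole lay above it. For Map2k1 the order was turned, with the fitted mean of the locus at -0.053. The GC content of these probes was 36.7% for Met and Nras, 35.0% for Egfr, 42.9% for Braf and 38.3% for Map2k1.

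The comparison of the groups asks whether tumours of mice given anti-PD1 carried other copy number at these genes than tumours of the diet alone. After adjustment over all loci, limma called a difference between the groups at 0 of the 5 loci. The locus means of 0 of 22973 loci (0.0%) differed at an adjusted p under 0.05, and 146 loci (0.636%) had an unadjusted p under 0.05. Of the 5 genes, only Egfr had one. For the distance of a locus from the mean of its own chromosome in the same tumour, which removes gains and losses of whole chromosomes, the counts were 0 (0.0%) and 293 (1.28%), and again Egfr was the only one of the 5 below an unadjusted p of 0.05.

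The signal of 4 arrays was dim, with 65.0 to 88.4% of probes well above background in the tumour channel against 94.1% or more on the others. They are lesion 1 of mice 608 and 2094 (anti-PD1) and of mice 1770 and 2064 (CD-HFD), and several of the most distant values below come from them. Without these arrays, a choice made after the data were seen, 0 loci were called in either group difference and 357 had an unadjusted p under 0.05 for the locus mean. The differences were then -0.12 at Egfr (unadjusted p = 0.022 in limma), -0.094 at Met, -0.026 at Nras, -0.10 at Braf and -0.027 at Map2k1, each with an adjusted p of 0.99995.

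Met lay above the array median in 20 of 21 tumours. In the CD-HFD tumours its locus mean had a lowest value of -0.23, a median of 0.18 and a highest value of 0.41, and in the anti-PD1 tumours the lowest was 0.0075, the median 0.17 and the highest 0.34. The ranges overlapped throughout, with 4 CD-HFD and 6 anti-PD1 tumours at 0.2 or above. Over mice the means were 0.22 ± 0.12 for CD-HFD and 0.17 ± 0.12 for anti-PD1 (SD, n = 7 each). The fitted difference, anti-PD1 minus CD-HFD, was -0.021 (SE 0.065, 95% interval -0.15 to 0.11, limma adjusted p = 0.99994).

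The lowest Met value belonged to lesion 1 of CD-HFD mouse 2064, a dim array, in which chromosome 6 as a whole stood at -0.26. Lesion 2 of the same mouse had 0.36 at Met with chromosome 6 at 0.10. The 2 lesions of this mouse thus differed by 0.60 at Met. Relative to its chromosome, Met was higher in all 21 tumours, by 0.015 to 0.30. Egfr was above its own chromosome in all 21 as well, and how many of all loci were so was not counted. The group difference in the distance of Met was 0.022 (SE 0.038, 95% interval -0.057 to 0.10, limma adjusted p = 0.99996). It was -0.021 within slide 1 and 0.027 within slide 2.

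Egfr was the gene with the lowest values in the anti-PD1 group relative to CD-HFD. The CD-HFD tumours ran from 0.022 through a median of 0.15 to 0.28, and all 9 were above 0. The anti-PD1 tumours ran from -0.19 through a median of 0.044 to 0.14, and 8 of 12 were above 0. All 12 anti-PD1 tumours, from 7 mice, lay below the median of the CD-HFD tumours. Each of these 7 mice had a mean below that of the CD-HFD mice, while single values of the groups overlapped. How many of all loci show this order was not counted. At Braf all 7 anti-PD1 mice were below the CD-HFD mean too, where exact permutation of the mice gave an unadjusted p of 0.18. Mean values over mice were 0.15 ± 0.090 for CD-HFD and 0.030 ± 0.051 for anti-PD1 (SD, n = 7 each).

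The fitted difference at Egfr was -0.13 (SE 0.047, 95% interval -0.22 to -0.034), with an unadjusted p of 0.0094 and an adjusted p of 0.99994 in limma over all loci. The unadjusted p was 0.051 with normexp background correction, 0.081 with bright probes only, 0.16 with windows of 250 kb, 0.38 with named probes and 0.077 with array weights. The unadjusted limma p was lower with slide as covariate (0.0046) and with correction for GC content (0.0047). With the mean of each mouse it was 0.021. Of all 22973 loci, 0.331% had a lower difference. An exact permutation of the 14 mice gave a difference of -0.11 with a two-sided p of 0.011, unadjusted, where the smallest p that 3432 splits allow is 0.00058. The difference was -0.12 within slide 1 and -0.060 within slide 2, with 3 mice of each group on either slide. On slide 3, 4 anti-PD1 mice averaged 0.021 against 0.27 in the only CD-HFD tumour.

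The group difference in the distance of Egfr from chromosome 11 was -0.099 (SE 0.039, 95% interval -0.18 to -0.019, unadjusted p = 0.017, adjusted p = 0.99996 in limma). Here the CD-HFD tumours ran from 0.081 through 0.17 to 0.42, and the anti-PD1 tumours from 0.035 through 0.082 to 0.26. The highest values were 0.42 in lesion 2 of CD-HFD mouse 2064 and 0.39 in CD-HFD mouse 822. Lesion 1 of mouse 2064 had 0.17, so that the lesions of this mouse differed by 0.25. With arrays weighted by their fit, the distance difference of Egfr was -0.032 and its locus mean difference -0.070, with adjusted p = 0.52 and 0.26. That setting called 1614 loci in the distance difference, and none of the 5 genes was among them.

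**Figure D1:**
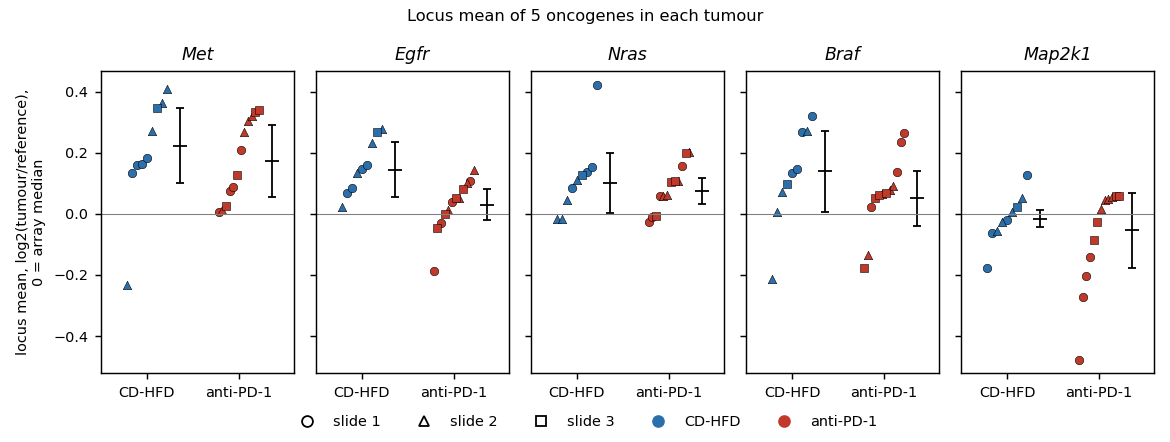
Locus mean of each oncogene in every tumour (log2 of tumour over reference, 0 being the array median), by group and with the slide as the marker shape; the black lines give the mean ± SD over 7 mice. All 12 Egfr values of the anti-PD1 group, from 7 mice, lie below the CD-HFD median of 0.15, an order not counted over all loci. The groups of the other genes overlap widely.

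Nras had the smallest SD over tumours among the 5. In CD-HFD tumours its locus mean ran from -0.018 through 0.11 to 0.42, and in anti-PD1 tumours from -0.027 through 0.084 to 0.20. The value of 0.42 stood alone, since the next highest of the 21 was 0.20. It came from lesion 1 of CD-HFD mouse 1770, also a dim array, where the mean of chromosome 3 was 0.34, so that Nras exceeded its chromosome there by 0.084. Lesion 4 of that mouse had 0.15 at Nras and 0.18 for the chromosome.

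The group difference at Nras was -0.032 (SE 0.050, 95% interval -0.13 to 0.070, limma adjusted p = 0.99994), and it was 0.019 without mouse 1770. Within slide 1 the difference was -0.13 and within slide 2 it was 0.077. The distance of Nras from chromosome 3 stayed between -0.087 and 0.084 in all tumours. Its SD over tumours of 0.049 was below the median of 0.095 over all loci, and 4.0% of loci varied less.

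Braf, the RAF kinase, shares chromosome 6 with Met. Its locus mean ran from -0.21 through 0.13 to 0.32 in CD-HFD tumours and from -0.18 through 0.067 to 0.27 in anti-PD1 tumours. The 3 tumours in which it was lowest were lesion 1 of CD-HFD mouse 2064 at -0.21, lesion 5 of anti-PD1 mouse 612 at -0.18 and anti-PD1 mouse 2116 at -0.13. In these the mean of chromosome 6 was -0.26, -0.15 and -0.17, the lowest of the series. Lesion 2 of mouse 612 had 0.23 at Braf and 0.10 for the chromosome, on another slide and array design.

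All 7 anti-PD1 mice averaged less at Braf than the mean of the CD-HFD mice, an order not counted over all loci. The fitted difference was -0.056 (SE 0.061, 95% interval -0.18 to 0.068, limma adjusted p = 0.99994), and exact permutation of the mice gave an unadjusted p of 0.18. With probes common to both designs the difference was 0.0099. The group difference in the distance from chromosome 6 was -0.013 (SE 0.036, 95% interval -0.087 to 0.062, limma adjusted p = 0.99996), and by 0.047 with the common probes.

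Map2k1 was the only gene of the 5 with a median below 0 in both groups. CD-HFD tumours ran from -0.18 through -0.021 to 0.13, and anti-PD1 tumours from -0.48 through -0.0055 to 0.058. The lowest values came from a single anti-PD1 mouse, 608, with -0.48 in lesion 6 and -0.27 in lesion 1, where the mean of chromosome 9 was -0.38 in both. Lesion 3 of this mouse had -0.084 at Map2k1 and -0.10 for the chromosome. The difference between the groups was -0.064 (SE 0.060, 95% interval -0.19 to 0.059, limma adjusted p = 0.99994), and 0.0072 without mouse 608. Within slide 1, which holds lesions 1 and 6 of mouse 608, it was -0.20, and within slide 2 it was 0.053.

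**Figure D2:**
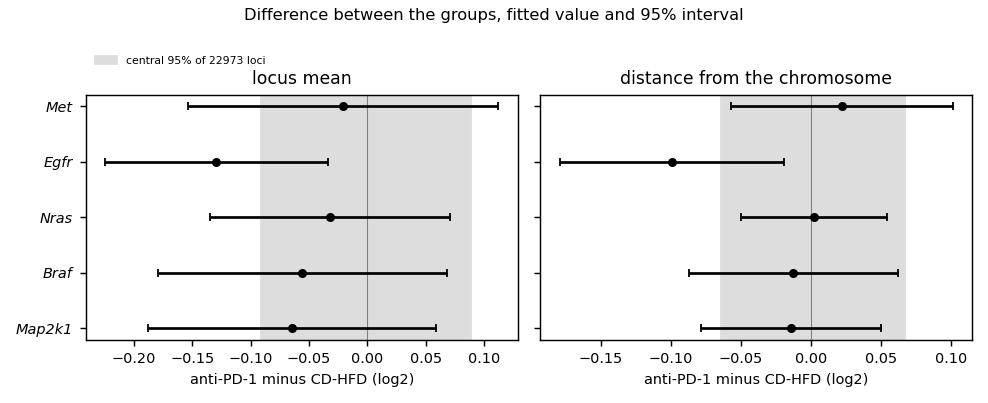
Fitted difference of each oncogene locus, anti-PD1 minus CD-HFD on the log2 scale, with its 95% interval, for the locus mean (left) and the distance from the chromosome (right); the grey band holds the central 95% of 22973 loci. Egfr lies outside the band in both panels, at -0.13 and -0.099, and the other 4 lie within it.

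Over all 21 tumours, 4 of the 5 loci lay above the array median. The fitted mean was 0.19 for Met (limma adjusted p = 5.4e-06), 0.099 for Nras (0.00059), 0.088 for Braf (0.0090) and 0.080 for Egfr (0.0055), whereas Map2k1 had -0.053 (0.11). With the authors' loess-normalized ratios Met had 0.026 (limma adjusted p = 0.53) and Egfr -0.034 (0.32), and with normexp background correction Braf had 0.031 (0.24), so that none of these was called there. Of all loci 33.6% were called above 0 and 39.1% below in this test, so that a call of this kind is common on these arrays. In distance from the own chromosome, Met at 0.16 (adjusted p = 2.4e-08), Egfr at 0.15 (6.3e-07) and Braf at 0.061 (0.0023) were called higher, against 33.6% of all loci higher and 47.7% lower. Nras at 0.0050 and Map2k1 at 0.0019 were not called.

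Counted tumour by tumour, 20 of the 105 locus means of the 5 genes were at 0.2 or above and 5 were at -0.2 or below. Over all loci and tumours the shares were 15.2% and 19.5%. The high values were 10 of Met, 5 of Braf, 3 of Egfr and 2 of Nras, and the low ones 3 of Map2k1 and 1 each of Met and Braf. All 3 low Map2k1 values came from slide 1, where its locus mean had a median of -0.16, against 0.023 on slides 2 and 3. Of the distances from the chromosome, 14 were at 0.2 or above, namely 7 of Met, 4 of Egfr and 3 of Braf, and 0 were at -0.2 or below. The corresponding shares of all loci were 10.1% and 15.9%.

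These values differed between slide 1 and slides 2 and 3, which carry another array design. The distance of Met had a median of 0.088 in the 8 tumours of slide 1 and of 0.22 in the 13 tumours of slides 2 and 3. For Braf the order was turned, with 0.13 on slide 1 and 0.019 on the others, and the 3 Braf distances at 0.2 or above all came from slide 1. Met accordingly exceeded Braf in 12 of 13 tumours of slides 2 and 3 but in 2 of 8 of slide 1. Egfr had medians of 0.087 and 0.17, Map2k1 -0.064 and 0.020, and Nras 0.014 and -0.0028. The highest distance on slide 1 was 0.12 for Met and 0.19 for Egfr. All 7 Met and all 4 Egfr distances at 0.2 or above thus came from slides 2 and 3. Both groups were present on each design. The first design was on slide 1 alone, so that design, slide and the tumours on it cannot be told apart. The part of the probes in these differences was not tested.

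When the median of the tumours on the same design was taken off each distance, an alternative chosen after the data were seen, 2 of 105 values (1.90%) were at least 0.2 away from 0, against 3.48% over all loci. Both belonged to Egfr and to the CD-HFD group, in lesion 2 of mouse 2064 at 0.25 and in mouse 822. No tumour reached 0.2 in this measure at Met, Nras, Braf or Map2k1. The widest values there were -0.19 for Met in lesion 1 of mouse 2064 and 0.17 for Map2k1 in lesion 1 of mouse 608.

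**Figure D3:**
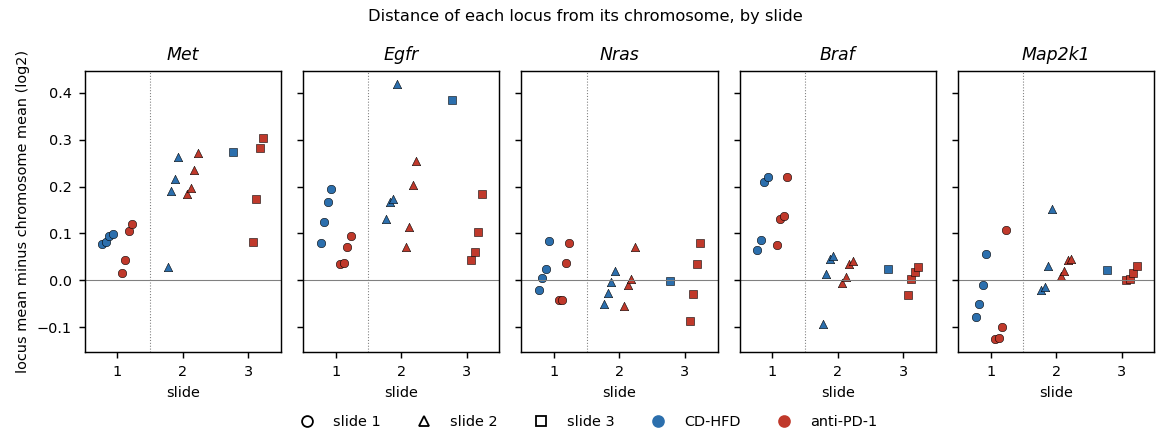
Distance of each locus from the mean of its chromosome in the same tumour (log2), by slide and group; the dotted line parts slide 1 from slides 2 and 3, which carry another array design. The median of Met was 0.088 left of the line and 0.22 right of it, and that of Braf 0.13 and 0.019.

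Probes within a locus differed more than tumours did. In bins of 100 kb, the bin centred 350 kb before the middle of Met averaged 0.83 over 2 probes of the first design and 1.70 on the only probe of the second. The bin 450 kb before Egfr had -0.38 and -1.06. These means recurred across tumours, with SD values of 0.18 and 0.29 for the Met bin. The probes named for Map2k1 exceeded the other probes of its locus in 21 of 21 tumours, with medians of 0.27 against -0.46 on slide 1 and 0.44 against -0.035 on slide 2. For Nras the single named probe was below the rest in all 21.

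Named probes alone gave 0.37 for Map2k1 and -0.47 for Nras, in place of -0.053 and 0.099 for the loci. For Braf the named probes were the higher in 19 tumours, for Egfr in 13 and for Met in 7. Only 2 probes are named for Egfr on slides 2 and 3, against 21 on slide 1, and their median was 0.66 on slide 2 and 0.040 on slide 1.

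**Figure D4:**
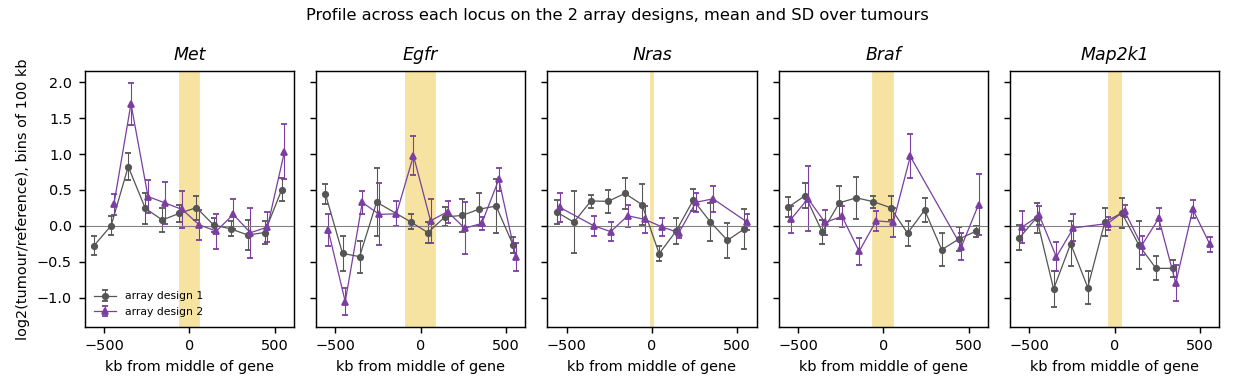
Mean log2 ratio in bins of 100 kb against the distance from the middle of the named probes, with the SD over 8 tumours of the first design (circles) and 13 of the second (triangles); the shaded band spans the named probes. Bins reach 1.70 near Met and -1.06 near Egfr, and the band itself does not stand out in the same way for all genes.

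GC content, the share of G and C bases, explained 3.55 to 25.4% of the variance of the probes in single tumours. The 50 kb around the Egfr probes held 41.0% GC against 45.4% for chromosome 11. After correction for GC content the locus mean of Egfr over all tumours was -0.017 (limma adjusted p = 0.60) and its distance -0.021 (0.34), so that neither kept its sign. The group differences at Egfr were -0.14 and -0.12 with the same correction (limma unadjusted p = 0.0047 and 0.00071, adjusted p = 0.99993 and 0.99982). Nras after correction had -0.0032 and a distance of -0.034 (adjusted p = 0.015).

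Met and Braf remained above 0 after the correction. Met had a locus mean of 0.10 (limma adjusted p = 0.0032) and a distance of 0.11 (8.6e-07), and Braf 0.12 (0.0016) and 0.13 (6.9e-07). Map2k1 had 0.0085 and a distance of 0.056 (adjusted p = 0.00023). With this correction 30.8% of all loci were called above 0 and 19.4% below in the locus mean, and 34.7% and 29.1% in the distance. After the correction 8 locus means (7.62%) and 7 distances (6.67%) of the 5 genes were at 0.2 or above. The shares over all loci were lower as well than without it, at 9.82% and 4.41%.

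**Figure D5:**
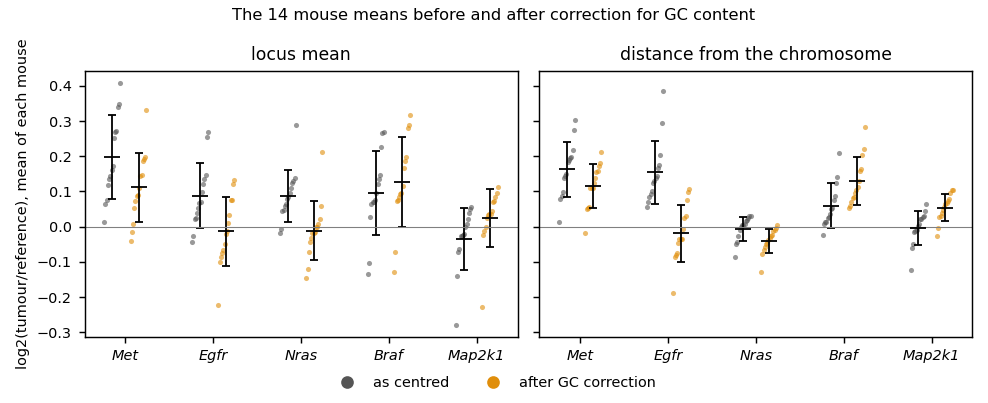
Mean of each of the 14 mice (points) with mean ± SD (black lines), for the log2 ratios as centred (grey) and after correction for GC content (orange). Egfr moves to about 0 in both panels, while Met and Braf keep means above 0.

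The SD over tumours was smaller for the chromosomes than for the 5 loci on them, as in the median of all loci. A chromosome mean averages far more probes than a locus mean, so this order is no trait of the 5 loci. The SD of the locus mean over tumours was 0.16 for Met, 0.14 for Braf and Map2k1, 0.11 for Egfr and 0.10 for Nras, beside a median of 0.14 over all loci. The SD of their chromosomes was 0.11 for chromosome 6, 0.12 for chromosome 9, 0.083 for chromosome 11 and 0.078 for chromosome 3. The median over the chromosomes of all loci was 0.096. Lesions of 1 mouse differed at most by 0.60 at Met, 0.41 at Braf, 0.39 at Map2k1, 0.29 at Egfr and 0.27 at Nras. The consensus correlation of lesions within a mouse was -0.053 in the group comparison of locus means. Being below 0, it did not widen the SE for mice with several lesions. The SE of the Egfr difference was 0.047 with it and 0.048 with every tumour taken as independent.

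Beyond the 5 genes, 84 genes of the pathway in 5 lists all had a locus. None of them passed the adjusted threshold in either group difference, and their median difference was -0.016 in locus mean, beside -0.011 over all loci. At an unadjusted p under 0.05 there were 0 genes for the locus mean and 1 for the distance, with 0.636% and 1.28% of all loci. Against 0, 28 of the 84 loci were called above and 30 below, close to the 33.6% and 39.1% of all loci.

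In each list the gene with the smallest p for the locus mean is named. Among 16 growth factors it was Gas6, the ligand of the AXL receptor family, at 0.092 (SE 0.061, unadjusted p = 0.14). Among 24 other receptors it was Mst1r, the receptor related to Met, at -0.11 (SE 0.059, unadjusted p = 0.086). Among 11 adaptors, exchange factors and a phosphatase it was the RAS exchange factor Sos1 at -0.032 (SE 0.043, unadjusted p = 0.46). Mras at -0.076 (SE 0.062, unadjusted p = 0.23) came first of 14 other RAS, RAF, MEK and ERK genes. Dusp4, a phosphatase that acts on ERK, led 19 inhibitors at 0.13 (SE 0.063, unadjusted p = 0.055). All of these had an adjusted p of 0.99994 in limma.

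In distance from the chromosome the corresponding genes were Igf1 at 0.055, Flt1 at -0.046, Rasgrf1 at 0.053, Rap1b at 0.050 and Rasa1, a GTPase-activating protein of RAS, at -0.076. Rasa1 was the only one below an unadjusted p of 0.05 (p = 0.049, limma adjusted p = 0.99996).

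Across the 21 tumours, the locus means of Egfr and Map2k1 had a Pearson correlation of 0.55 and those of Met and Braf one of 0.46, and the other pairs lay between -0.21 and 0.38. On other chromosomes the loci most like Met were ZBBX (r = 0.79) and Olfr267 (0.78), those most like Egfr AK085621 (0.77) and SWAP70 (0.73), and those most like Nras HSPA5 (0.78) and ENSMUST00000099486 (0.76). GM20356 (0.78) and ENSMUST00000164514 (0.72) were most like Braf, and Kin (0.86) and AK048151 (0.86) most like Map2k1. Each is among the highest of 22973 loci by choice, and the points share arrays, designs and the median that was taken as 0.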

How the data were processed

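The authors deposited, for each of 21 Agilent 2-colour arrays, the spot intensities and log10 ratios written by the scanner software, besides log2 ratios after loess normalization of 11526 probes. Tumours were always in the Cy3 channel and the reference in Cy5, so dye and tumour cannot be told apart, and positions are in mm9. The deposited processed intensities had been background-subtracted and dye-normalized by the software. From them log2 ratios (tumour over reference) were formed and the array median was subtracted, without control spots and outlier-flagged spots. Probes on chromosomes 1 to 19 and X numbered 54501 on design 1 and 54565 on design 2, with 12730 in common. The share of probes well above background in the tumour channel was 65.0 to 100.0%, under 90% on 4 arrays, and noise between neighbouring probes was 0.41 to 0.68. The number of arrays limits the precision.

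Loci with at least 5 probes on each array were averaged (22973 loci, overlapping one another) and tested in limma 3.58.1 (R 4.3.3) by lmFit and eBayes, the mouse entering as a random block through duplicateCorrelation. Tests were two-sided, p-values were adjusted over all loci after Benjamini-Hochberg, and the threshold was 0.05. Nothing but the sample name ties lesions to mice. Tumours at or past 0.2 were counted without a test. GC content came from exact matches of probes to GRCm38 (99.9% at 1 place), and no coordinate was converted. The fit was also run on simulated distances in which lesions of 1 mouse were positively correlated and slides had no effect. These settings differ from the data, so that run does not show how the fit performs here. The alternatives were other normalizations, probe sets, windows, summaries and thresholds, slide as covariate, array weights, exact permutation and each mouse left out. The 5 genes and the pathway lists were chosen with earlier results of these data known. Other named genes followed a rule, the 2 loci on other chromosomes most correlated with each gene and the gene of smallest p in each list. Python 3.11.15 was used with pandas 2.3.3.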

Additional observations from a re-analysis of the deposited data

Results flagged for a closer look

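Mouse means were looked at in 20 sets of 7, for each gene, group and measure, and a mouse was singled out where its gap to the nearest mouse took a larger share of the range of the group than Dixon's 95% critical value for 7 values. Chance singles out about 1 in 20 such sets. This held for 1 set, the Braf locus mean of the anti-PD1 group, in which mouse 2116 had -0.1349, the next mouse 0.0281 and the highest 0.1357. The mean of chromosome 6 in this tumour was -0.17, and the distance of Braf from it was 0.035.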

How the results depend on the processing

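No paired analysis was possible because every mouse belonged to 1 group. The differences between the groups stayed without a call at all 5 loci in every refit over all loci. At Egfr the locus mean difference was below 0 in all 18 settings (-0.15 to -0.060) and without each mouse (-0.15 to -0.10), as was its distance (-0.12 to -0.032, and -0.12 to -0.071 without each mouse). Exact permutation of the mice, unadjusted, gave -0.11 (p = 0.011) and -0.094 (p = 0.034) for Egfr. In limma its unadjusted p, 0.0094 and 0.017, became 0.051 and 0.097 with normexp, 0.081 and 0.17 with bright probes, 0.16 and 0.32 with windows of 250 kb, 0.38 and 0.50 with named probes, and 0.077 and 0.37 with array weights. The same p of Egfr in limma was lower with slide as covariate (0.0046 and 0.0016) and with GC correction (0.0047 and 0.00071). With mouse means it was 0.021 and 0.034. Array weights called 1614 loci in the distance difference instead of 0. Named probes alone called 8837 and 9072 loci against 0, with fewer loci tested. Precision is limited by 14 mice and by few probes per locus. For the other values below, the cause was not tested.

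In the locus mean difference, Met was 0.026 with array weights, 0.046 with named probes and 0.00094 with locus medians, Braf was 0.0099 with common probes and Map2k1 0.036 with array weights. Within slide 1 and slide 2, Nras had -0.13 and 0.077 and Map2k1 -0.20 and 0.053. Without each mouse, Met ranged from -0.059 to 0.0045, Nras from -0.054 to 0.019 and Map2k1 from -0.12 to 0.0072, the last values being those without mice 2088, 1770 and 608.

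In the distance difference, Met was -0.0052 without the 4 dim arrays, a setting chosen after seeing the data, -0.021 within slide 1 and -0.065 on slide 3. Braf was 0.021 with the loess ratios, 0.047 with common probes, 0.0093 with slide as covariate, 0.0081 with windows of 1 Mb and 0.043 with named probes. Nras was -0.0011 with normexp, -0.0034 with GC correction, -0.0084 with mouse means and by permutation, -0.0066 with chromosome medians and -0.029 within slide 1, where Map2k1 was -0.058. Without each mouse, Braf ranged from -0.041 to 0.012, Nras from -0.0071 to 0.011 and Map2k1 from -0.026 to 0.0036.

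In the locus mean against 0, Met was 0.026 (adjusted p = 0.53) and Egfr -0.034 with the loess ratios, and Braf 0.031 with normexp and 0.059 with locus medians. Nras was 0.0095 with common probes, -0.0032 with GC correction and -0.47 with its named probe. Egfr was -0.017 with GC correction. Map2k1 was -0.084 with normexp, -0.067 with bright probes, -0.11 with common probes, 0.0085 with GC correction, -0.067 with windows of 1 Mb and 0.37 with named probes, and -0.077 to -0.012 without each mouse, being called without mouse 2094.

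In the distance against 0, Braf was 0.032 with locus medians and Egfr -0.021 with GC correction. Nras was -0.11 with common probes, -0.034 with GC correction, -0.0060 with mouse means, -0.0025 with array weights, -0.022 and -0.011 with windows of 250 kb and 1 Mb, -0.56 with its named probe, -0.028 with locus medians and -0.0070 without the dim arrays. Map2k1 was -0.026 with normexp, -0.0087 with bright probes, -0.036 with common probes, 0.056 with GC correction, -0.0036 with mouse means, -2.7e-05 with array weights, 0.050 and -0.011 with windows of 250 kb and 1 Mb, 0.42 with named probes, -0.0019 with locus medians and -0.022 without the dim arrays. Without each mouse, Nras ranged from -0.00051 to 0.0092 and Map2k1 from -0.0044 to 0.0083.

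Of 105 locus means of the 5 genes, 20 were at 0.2 or above, 43 at 0.1, 9 at 0.3, 13 with the loess ratios, 8 with GC correction and 42 with common probes, beside 15.2%, 29.4%, 7.20%, 15.8%, 9.82% and 22.5% of all loci. At the low side 5 became 10, 1 and 11 at -0.1, at -0.3 and with the loess ratios. There 19.5% of all loci became 33.5%, 9.67% and 26.6%. For distances 14 became 33 and 3 at the other thresholds, 9 with the loess ratios, 7 with GC correction and 31 with common probes, where 10.1% of all loci became 23.2%, 3.76%, 14.9%, 4.41% and 17.9%. For these distances the share of the 5 genes lay below that of all loci with the loess ratios (8.57%) and at 0.3 (2.86%). For the high locus means it lay below with the loess ratios (12.4%) and with GC correction (7.62%). At the high side it lay above that of all loci in the other settings. The 0 low distances became 2 at -0.1 and 5 with common probes, beside 33.5% and 24.4% of all loci.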
